A study of Mus musculus with 2 samples.

Results

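The type I interferon antiviral response was examined as a group of 41 genes that interferon alpha and beta are known to induce, named by a fixed list of gene symbols. Of these, 39 were measured by probe sets that carry 1 gene symbol, out of 18193 genes measured in all. They comprise 32 of 34 effectors, 4 sensors of viral nucleic acid and 3 transcription factors. Isg15 was covered by a probe set shared with another gene and is described apart, and Ifi44 was not analysed here. The data are 2 single-colour mouse expression arrays, 1 of Hopx-/- and 1 of Hopx-sufficient regulatory T cells (Tregs). Both samples were T cells taken directly from immunized animals, in which dendritic cells had induced them, and sorted for CD25 and Foxp3 together. The labels do not say whether the animals are full or conditional knockouts, nor their strain, age or number. Hopx, a cofactor that lacks DNA binding of its own, read -4.87 and -5.44 on its probe sets as a log2 difference, Hopx-/- minus Hopx-sufficient, so the labels hold.

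Type I interferons bind a receptor of the chains Ifnar1 and Ifnar2, whose kinases Jak1 and Tyk2 pass the signal on to Stat2. This factor acts with Irf9 in a complex called ISGF3, which binds the interferon-stimulated response element (ISRE) in the promoters of antiviral genes. The products block viral entry, translation, replication or release, and some of them are the sensors and factors that prepare the cell for a further signal. T cells, Tregs included, carry the receptor and express such genes at a resting level.

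Every value below is a log2 difference, Hopx-/- minus Hopx-sufficient, centred on the median of all single-symbol probe sets and averaged over the probe sets of a gene. The deposited columns are mirror images around 0 and carry no signal level. Whether a member was detected, and whether Treg markers were present, could therefore not be checked. With 1 array per genotype there is no replicate error and no test, so thresholds of 1.5-fold and 2-fold serve as rules of size. Each array measured the pooled RNA of sorted cells, so fewer cells of a type and less RNA per cell cannot be told apart. Genotype likewise cannot be told apart from how each set of animals was kept or treated.

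Promoters of 5 members are shown to let the response element be seen beside the differences: the 3 lowest members and the 2 nearest to 0 among those with a promoter sequence. The 250 bases before the annotated start are given 5' to 3' on the gene's strand, from RefSeq (GRCm38.p6). Capitals mark matches to the ISRE core, a pair of GAAA runs with 2 bases between them, on either strand.
Ifit1, chr19:34640639-34640888, plus strand: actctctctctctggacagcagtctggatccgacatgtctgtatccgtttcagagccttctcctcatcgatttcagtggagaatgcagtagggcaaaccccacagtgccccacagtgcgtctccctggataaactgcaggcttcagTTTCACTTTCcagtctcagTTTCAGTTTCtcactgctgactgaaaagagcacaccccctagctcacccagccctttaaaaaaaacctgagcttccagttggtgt
Oasl2, chr5:114896684-114896933, plus strand: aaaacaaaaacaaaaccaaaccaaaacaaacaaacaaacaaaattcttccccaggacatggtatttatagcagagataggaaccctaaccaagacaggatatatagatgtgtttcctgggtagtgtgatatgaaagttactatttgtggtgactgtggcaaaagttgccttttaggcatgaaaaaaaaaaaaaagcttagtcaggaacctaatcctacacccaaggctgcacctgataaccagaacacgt
Ifit3, chr19:34583279-34583528, plus strand: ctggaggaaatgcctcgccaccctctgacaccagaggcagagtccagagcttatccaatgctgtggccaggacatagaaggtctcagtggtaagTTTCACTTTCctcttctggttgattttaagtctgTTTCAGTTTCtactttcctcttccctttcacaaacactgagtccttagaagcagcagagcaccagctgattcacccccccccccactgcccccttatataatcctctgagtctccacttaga
Irf9, chr14:55603735-55603984, plus strand: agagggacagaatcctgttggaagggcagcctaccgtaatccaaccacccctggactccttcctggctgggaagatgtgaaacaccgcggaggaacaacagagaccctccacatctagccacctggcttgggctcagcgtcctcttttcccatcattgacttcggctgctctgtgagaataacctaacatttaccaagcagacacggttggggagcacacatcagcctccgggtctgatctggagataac
Ddx58, chr4:40239826-40240075, minus strand: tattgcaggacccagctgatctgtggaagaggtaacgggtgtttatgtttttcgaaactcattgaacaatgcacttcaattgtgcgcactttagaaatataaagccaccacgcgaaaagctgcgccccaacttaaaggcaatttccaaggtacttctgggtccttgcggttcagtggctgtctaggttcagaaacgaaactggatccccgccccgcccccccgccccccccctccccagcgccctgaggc
Ifit1 and Ifit3 each hold 2 copies upstream of the start, and Oasl2 and Irf9 hold none in this window. The match of Ddx58 begins 2 bases past the start, outside the stretch shown. Irf9 has 2 annotated starts, neither with a match, and 1 is shown.

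As a group, the listed antiviral genes were lower on the Hopx-/- array. The members and the other lists were chosen with earlier results of these data known. The shares beside all genes and beside other lists therefore describe the chosen genes and test nothing. Of the 39 measured members, 36 were below 0, against 49.9% of all genes. Their median was -0.43 (1.34-fold lower), against 0.00078 over all genes, and their standard deviation of 0.48 exceeded the 0.21 of all genes. At least 1.5-fold lower were 14 members, 35.9% of those measured, against 1.31% of all genes. At least 2-fold lower were 7 members, 17.9%, against 0.143% of all genes. Of the 26 genes in all that passed the 2-fold mark, 26.9% were thus members. None was 1.5-fold higher, where 0.297% of all genes stood. The lowest 100 genes held 11 of the members and the lowest 1000 held 23. Below the central 95% of all genes, which begins at -0.48, lay 18. By a looser rule, a log2 difference of -0.32, 27 members were lower, against 6.93% of all genes. At 3-fold, 2 members were lower, against 0.0275%.

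**Figure D1:**
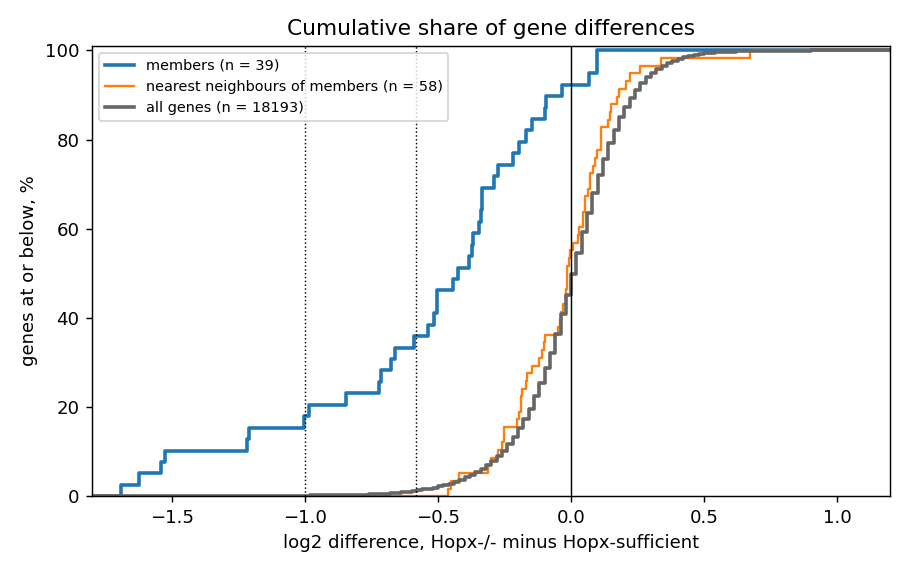
Cumulative share of genes (y axis, %) at or below a given log2 difference, Hopx-/- minus Hopx-sufficient (x axis), for the 39 members, their 58 nearest measured neighbours outside the interferon lists and all 18193 genes. Dotted lines mark 1.5-fold and 2-fold lower. The member curve lies left of the others between -1.69 and 0.10, and the neighbour curve stays close to that of all genes.

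The size rules cut the ranking where members lay close together. At 1.5-fold, Isg20 was the last member inside (-0.59) and Lgals3bp the first outside (-0.54). At 2-fold, Rsad2 was the last inside (-1.003) and Ifitm3 the first outside (-0.99).

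The 18 probe sets of spike-ins, added at hybridization, lay between -0.22 and 0.01. Their median was -0.12, so they centred below the 0 that the counts use. Below the lowest of them lay 29 of the 39 members, against 13.03% of all genes. A further 7 members lay within the spike-in range and 3 above it.

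**Figure D2:**
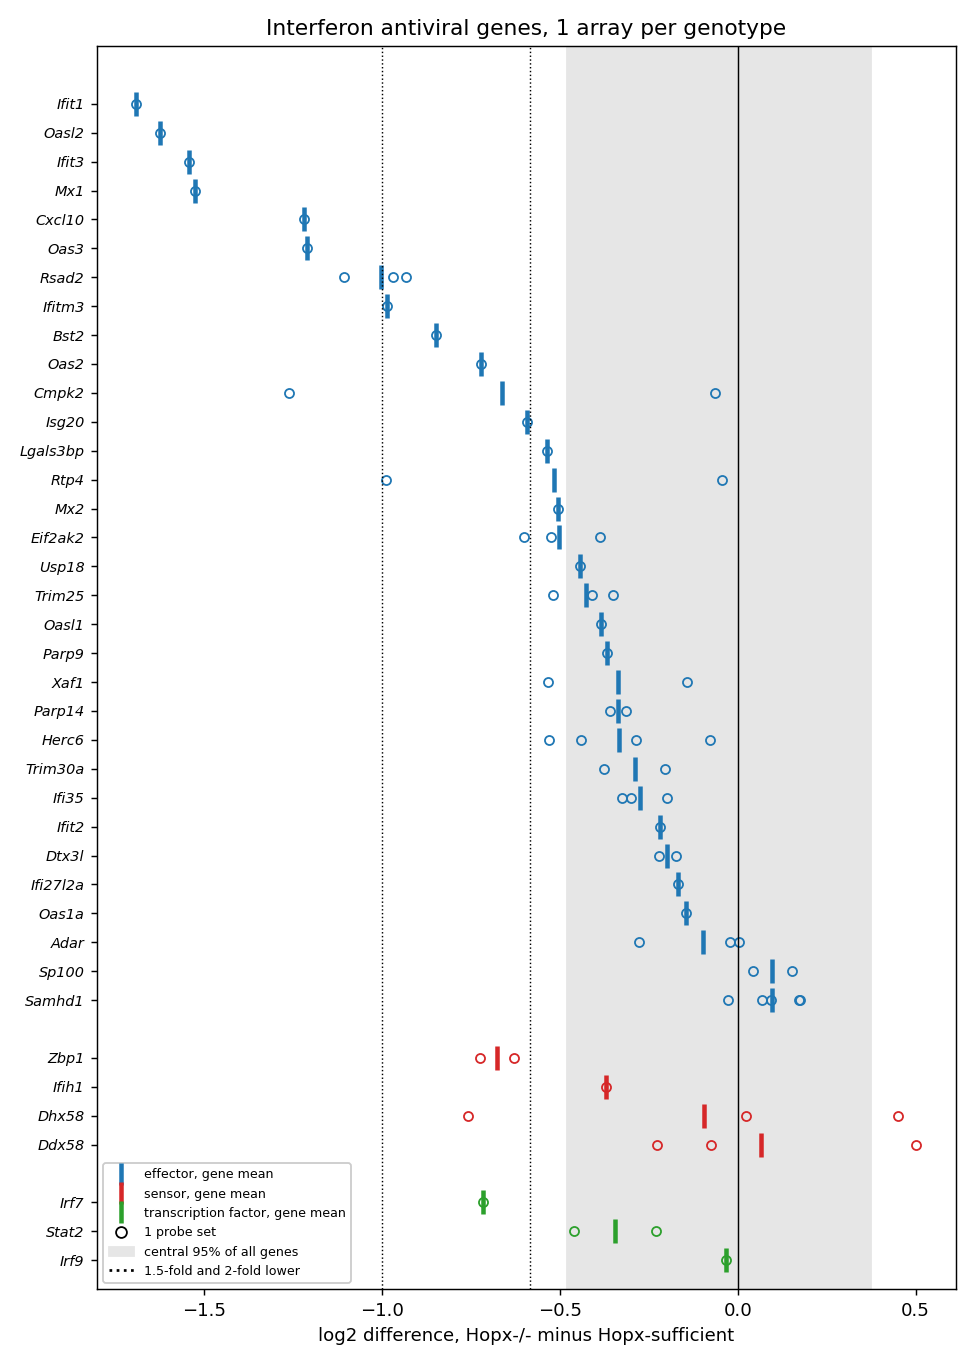
Log2 difference, Hopx-/- minus Hopx-sufficient (x axis), of each of the 39 measured members, grouped as effectors, sensors and transcription factors. Bars are gene means, circles single probe sets, the grey band the central 95% of all genes and dotted lines 1.5-fold and 2-fold lower. Effectors reach down to -1.69, while Samhd1, Sp100 and Ddx58 lie just above 0.

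Among the effectors, 30 of 32 were below 0, with a median of -0.47, and 12 were at least 1.5-fold lower. The IFIT proteins bind viral RNA that lacks host cap marks and block its translation. Ifit1 read -0.84 on the Hopx-/- array and 0.84 on the Hopx-sufficient array as deposited, a difference of -1.69, and ranked 4th lowest of all genes. Ifit3, the partner that stabilises Ifit1 in human cells, read -0.77 on the Hopx-/- array and 0.77 on the Hopx-sufficient array, a difference of -1.54. These are the promoters shown above with 2 ISRE cores each. Ifit2, from the same gene cluster, differed by only -0.22, with 13.3% of all genes at or below that value. Each was measured by 1 probe set, and the near-identical copy Ifit3b may add to the signal of Ifit3. The IFIT-like genes Ifit1bl1 (-0.05) and Ifit1bl2 (0.13) lay near 0.

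The oligoadenylate synthetases (OAS) make a messenger that activates RNase L upon binding double-stranded RNA, and the OASL proteins are relatives with ubiquitin-like domains. Oasl2 read -0.81 on the Hopx-/- array and 0.81 on the Hopx-sufficient array, a difference of -1.62. Oas3 read -0.60 in Hopx-/- cells and 0.60 in Hopx-sufficient cells, a difference of -1.21. Oas2 followed at -0.72, Oasl1 at -0.38 and Oas1a at -0.15. The family thus spanned from over 3-fold to almost no difference. The Oas1 copies outside the member list ranged from -0.07 (Oas1b) to 0.14 (Oas1c) over 5 genes. These copies share sequence with Oas1a and the arrays may not fully separate them.

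The Mx proteins are dynamin-like GTPases that trap viral nucleoproteins. Mx1 read -0.76 in Hopx-/- cells and 0.76 in Hopx-sufficient cells, a difference of -1.53. Its paralog Mx2 differed by -0.51. Many inbred mouse strains carry defective Mx alleles, and the labels do not give the strain of these animals.

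Several effectors act on nucleic acids or nucleotides. Rsad2 (viperin) makes a chain-terminating nucleotide, and its 3 probe sets agreed closely, from -1.11 to -0.93. Cmpk2, a nucleotide kinase gene that lies next to Rsad2, had a mean of -0.66, but its probe sets read -1.26 and -0.06. The exonuclease gene Isg20 stood at -0.59. Eif2ak2 encodes PKR, which halts translation when it meets double-stranded RNA, and its 3 probe sets lay between -0.60 and -0.39. The RNA-editing enzyme gene Adar (-0.10) and the dNTP hydrolase gene Samhd1 (0.10) stayed near 0, Samhd1 with 5 probe sets between -0.03 and 0.18.

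The 5 membrane and secreted effectors were between 1.43-fold and 2.33-fold lower. Cxcl10, a chemokine that attracts Cxcr3-bearing cells, read -0.61 in Hopx-/- cells and 0.61 in Hopx-sufficient cells, a difference of -1.22. Ifitm3, which blocks fusion of viruses in endosomes, read -0.49 in Hopx-/- cells and 0.49 in Hopx-sufficient cells, 1.98-fold lower. Bst2 (tetherin), which holds budding virions at the cell surface, read -0.42 in Hopx-/- cells and 0.42 in Hopx-sufficient cells, a difference of -0.85. Lgals3bp, a secreted glycoprotein gene, stood at -0.54. Rtp4, a chaperone-like transmembrane protein gene, averaged -0.52 over probe sets at -0.99 and -0.04. Among relatives of Ifitm3, Ifitm1 (-0.35), Ifitm2 (-0.33), Ifitm5 (-0.38) and Ifitm7 (-0.31) were lower too, while Ifitm6 (0.04) and Ifitm10 (0.46) were not.

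ISG15 is a ubiquitin-like protein that the enzymes Uba7, Ube2l6 and, in mouse, Herc6 attach to targets, and that Usp18 removes. Usp18, which also damps signalling at the receptor, stood at -0.44. Herc6 averaged -0.33 over 4 probe sets, all below 0. The E1 gene Uba7 was at -0.01 and the E2 gene Ube2l6, no member, was 2.03-fold lower. The steps of the conjugation pathway thus differed by unequal amounts. Trim25, the ligase that modifies RIG-I, had 3 probe sets between -0.52 and -0.35. Trim30a, a regulator of innate signalling in mouse, averaged -0.29.

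The ADP-ribosylation genes Parp9, Parp14 and Dtx3l, which lie together in the genome and whose Parp9 and Dtx3l products form a complex, stood at -0.37, -0.34 and -0.20. The related Parp12, also interferon-induced, stood at -0.64, while Parp1, Parp2, Parp3, Parp8 and Parp11 ranged from -0.20 to 0.09. Of the remaining effectors, Xaf1 (-0.34), a pro-apoptotic gene, and Ifi35 (-0.27) were lower on every probe set. Ifi27l2a was at -0.17 and Sp100, a nuclear-body protein gene, at 0.10.

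**Figure D3:**
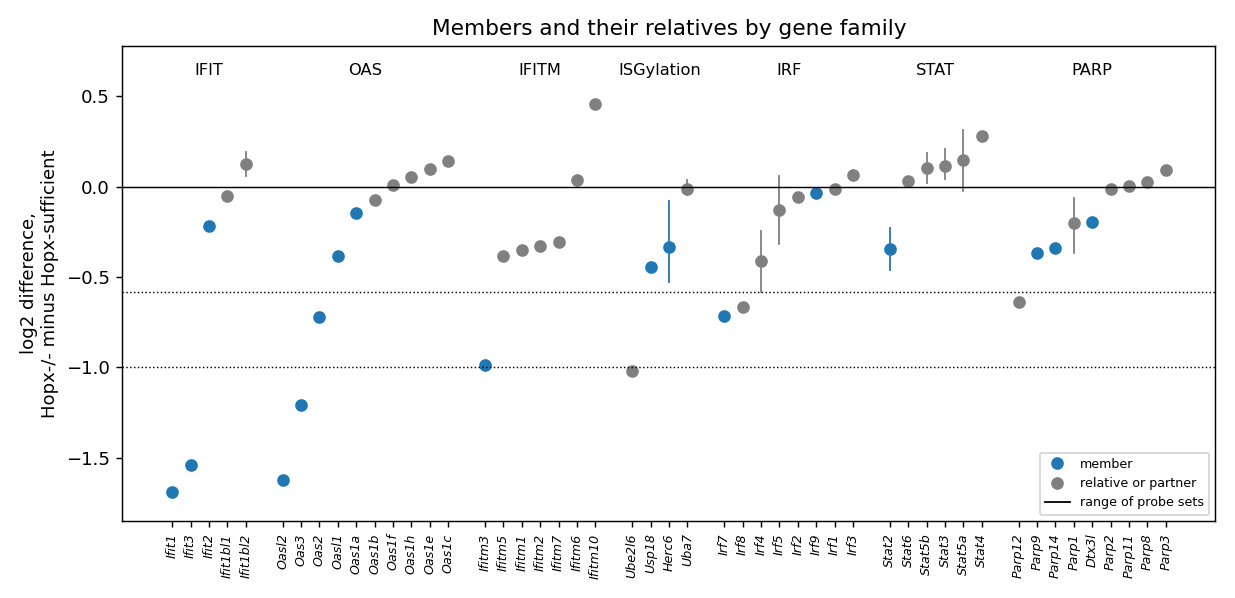
Log2 difference, Hopx-/- minus Hopx-sufficient (y axis), of members (blue) and of relatives or pathway partners outside the list (grey) in 7 families. Points are gene means, vertical lines the range of probe sets and dotted lines 1.5-fold and 2-fold lower. The IFIT and OAS members spread downwards from Ifit2 and Oas1a, while their relatives lie between -0.07 and 0.14.

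The 4 sensors had a median of -0.23, and 1 was at least 1.5-fold lower. Zbp1, which senses left-handed nucleic acid and can start necroptosis, had probe sets at -0.72 and -0.63. Ifih1 (MDA5), a sensor of long double-stranded RNA, stood at -0.37 on 1 probe set. The values of the other two depended on the probe set. Dhx58 (LGP2), which modulates the RNA sensors, had probe sets at -0.76, 0.02 and 0.45, with a mean of -0.09. Ddx58 (RIG-I), the sensor of uncapped viral RNA, had probe sets at -0.23, -0.08 and 0.50, with a mean of 0.07. By the median over probe sets these signs turned, to 0.02 for Dhx58 and -0.08 for Ddx58. Neither sensor has a settled direction here.

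The 3 transcription factors had a median of -0.34. Irf7, the amplifier of interferon production that is itself interferon-induced, read -0.35 in Hopx-/- cells and 0.35 in Hopx-sufficient cells, 1.64-fold lower. Stat2 had probe sets at -0.46 and -0.23, and Irf9, its partner in ISGF3, stood at -0.03. Of other IRF genes, Irf8 (-0.67) and Irf4 (-0.41) were lower, Irf5 stood at -0.13, and Irf1, Irf2 and Irf3 lay between -0.05 and 0.07. The other STAT genes measured, Stat3, Stat4, Stat5a, Stat5b and Stat6, ranged from 0.03 to 0.28.

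Agreement between probe sets was the available check on single values. The members were covered by 69 probe sets, of which 59 (85.5%) were below 0, against 49.999% of all single-symbol probe sets. Of the 18 members with several probe sets, 13 had all of them below 0 and 1 had all above 0, against 24.2% of such genes overall with all below 0. The standard deviation between probe sets of a gene was 0.33 in members and 0.18 in all genes. Of the 14 members past 1.5-fold, 11 rested on a single probe set, and the 3 others were Rsad2, Cmpk2 and Zbp1. Over all genes, 1.64% of the 9183 with a single probe set were at least 1.5-fold lower, and 0.97% of the 9010 with several. In the 18 members with several probe sets the median was -0.34.

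The Isg15 probe set, which also matches the related gene Gm9706, was kept out of these counts. It read -0.76 in Hopx-/- cells and 0.76 in Hopx-sufficient cells, a difference of -1.54. A second probe set, annotated to Gm9706 alone, differed by -1.23. The arrays may not separate these 2 genes.

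Ligand and receptor genes, upstream of the response, centred just above 0. The 9 measured type I interferon genes had a median of 0.06, with 4 below 0, and the most different were Ifnz (0.59), Ifnab (-0.28) and Ifna1 (0.25). These genes share sequence, and without levels it is unknown whether any was expressed. Ifng, the type II interferon gene, stood at -0.31 on 1 probe set. Receptors and receptor-proximal signalling genes were mostly above 0, 13 of 17, with a median of 0.12. Ifnar1 stood at 0.47 (probe sets at 0.29 and 0.65), Il10rb, a chain of the interferon lambda receptor, at 0.43, and Socs3, an inhibitor of cytokine signalling, at 0.34. Ifnar2 (0.26), Jak1 (0.27) and Tyk2 (0.07) lay on the same side, and these 3 were named after their values were seen. None of the 17 was 1.5-fold apart. A list of 16 genes holds other sensors of nucleic acid together with the signalling steps below sensors, and its median was -0.10. Farthest from 0 were sensor genes, Tlr9 at -0.40, Mb21d1 (cGAS) at -0.34 and Ifi204 at -0.23. The adaptors, kinases and factors below them ranged from -0.20 (Myd88) to 0.20 (Tmem173, or STING), with the RIG-I adaptor gene Mavs at -0.08, the kinase gene Tbk1 at 0.07 and Irf3 at 0.07. These genes were named after their values were seen.

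For induced genes outside the member list the medians lay closer to 0. Of 50 further interferon-induced genes, 36 were below 0, with a median of -0.07. Past 1.5-fold were Ube2l6 (-1.02), Gm4951 (-0.69) and Parp12 (-0.64), that is 3 of 50, against 14 of 39 members and 1.31% of all genes. Of 13 genes typical of interferon gamma, 12 were below 0, with a median of -0.24, and 3 of the 13 were at least 1.5-fold lower. These were the chemokine gene Cxcl9 (-0.98, probe sets at -1.67 and -0.29) and the GTPase genes Gbp2 (-0.65) and Iigp1 (-0.65). Both interferon types induce many of these genes. The 12 genes of MHC class I processing had a median of -0.03, with Erap1 at -0.27, Psmb10 at -0.23 and Psmb8 at -0.21.

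**Figure D4:**
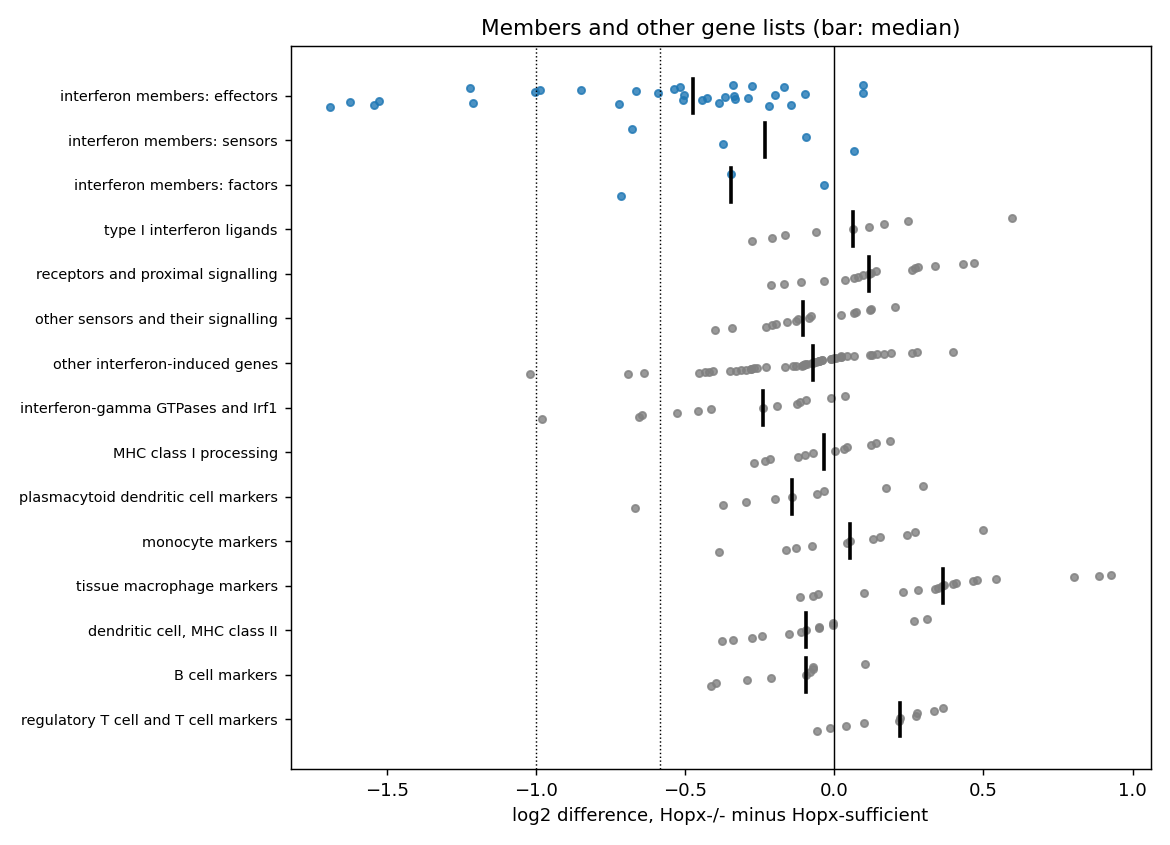
Log2 difference, Hopx-/- minus Hopx-sufficient (x axis), of single genes (points) in the 3 classes of members (blue) and in other lists (grey, members left out). Black bars are list medians and dotted lines mark 1.5-fold and 2-fold lower. The effector median of -0.47 lies furthest left, and ligand and receptor lists centre just above 0.

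Markers of other cells that a sort could hold were read beside these values. Plasmacytoid dendritic cells are strong producers of type I interferon, and 7 of their 9 markers other than the member Bst2 were below 0, with a median of -0.14. Irf8 (-0.67) and Ly6d (-0.37) were the lowest, and Ccr9 (0.30, 5 probe sets above 0) and Pacsin1 (0.17) went the other way. The defining marker Siglech stood at -0.20. Conventional dendritic cell and MHC class II genes were below 0 in 11 of 13 cases, with a median of -0.09 and with H2-Ab1 at -0.38, H2-Aa at -0.34 and Cd209a at 0.31. B cell markers were below 0 in 8 of 9 cases, with a median of -0.09 and with Cd79a at -0.41, Ebf1 at -0.40 and Cd22 at -0.29. The 11 monocyte markers had a median of 0.05, with Cd14 at 0.50, Lyz2 at -0.38 and Cx3cr1 at 0.27. Tissue macrophage markers were above 0 in 15 of 18 cases, with a median of 0.36 and with Hmox1, Mrc1 and Slc40a1 at 0.93, 0.89 and 0.80. T cell and Treg markers were above 0 in 8 of 10 cases, with a median of 0.22 and with Ikzf2 at 0.37, Ctla4 at 0.33 and Cd3g at 0.28. The table holds no levels of these markers, and their part in the interferon result was not tested.

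Position in the genome was examined because Hopx lies on chromosome 5, as do Cxcl10 and the OAS and OASL genes. The 6 members there had a median of -0.97, and the 33 members on other chromosomes had a median of -0.37, with 30 below 0 and 10 at least 1.5-fold lower. All 1131 measured genes of chromosome 5 had a median of 0.0069. Of these 1131, 23 were at least 1.5-fold lower, Hopx itself (-5.15) and 4 of the 6 members included. Over all genes, 238 of 18193 (1.31%) were. The nearest measured genes beside the members that belong to no interferon list, 58 in all, had a median of -0.01. None of the 58 was 1.5-fold lower, and at the 1.31% of all genes a set of that size may well hold none. The part of position in the interferon result was not tested.

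The ISRE core was searched in promoter windows from 250 bases before to 50 bases after the annotated start. RefSeq windows were found for 31 of the 41 members. They had 39 windows, since some genes have several annotated starts. The motif occurred in 15 of these 39 windows (38.5%), from 14 genes, and in 3.44% of all 32851 windows. That the members are rich in it follows from their being known interferon targets. The 13 measured members with a match had a median of -0.85 and 7 of them were at least 1.5-fold lower. The 16 without a match had a median of -0.34 and 4 of them were at least 1.5-fold lower, Oasl2 and Irf7 included. The ranges overlapped, from -1.69 to 0.07 with a match and from -1.62 to 0.10 without.

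Matches lay upstream of the start in Ifit1, Ifit3, Cxcl10, Oas3, Rsad2, Bst2, Oas1a and Stat2. They lay only past the start in Ifitm3, Eif2ak2, Ifih1 and Ddx58, and on both sides in the 2 windows of Trim30a. The 511 measured genes outside the list with a match centred near 0. They had a median of -0.0045, and 1.17% were at least 1.5-fold lower, against 1.31% of all genes. The gamma-activated site, TTCNNNGAA, which STAT dimers bind, occurred in 9 of the 39 member windows (23.1%), from 9 genes, and in 8.30% of all windows. The 9 genes with it had a median of -0.27, against -0.41 in the 20 without. In 2 member windows the motifs shared bases. A match here is a run of letters and not a measured binding site.

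**Figure D5:**
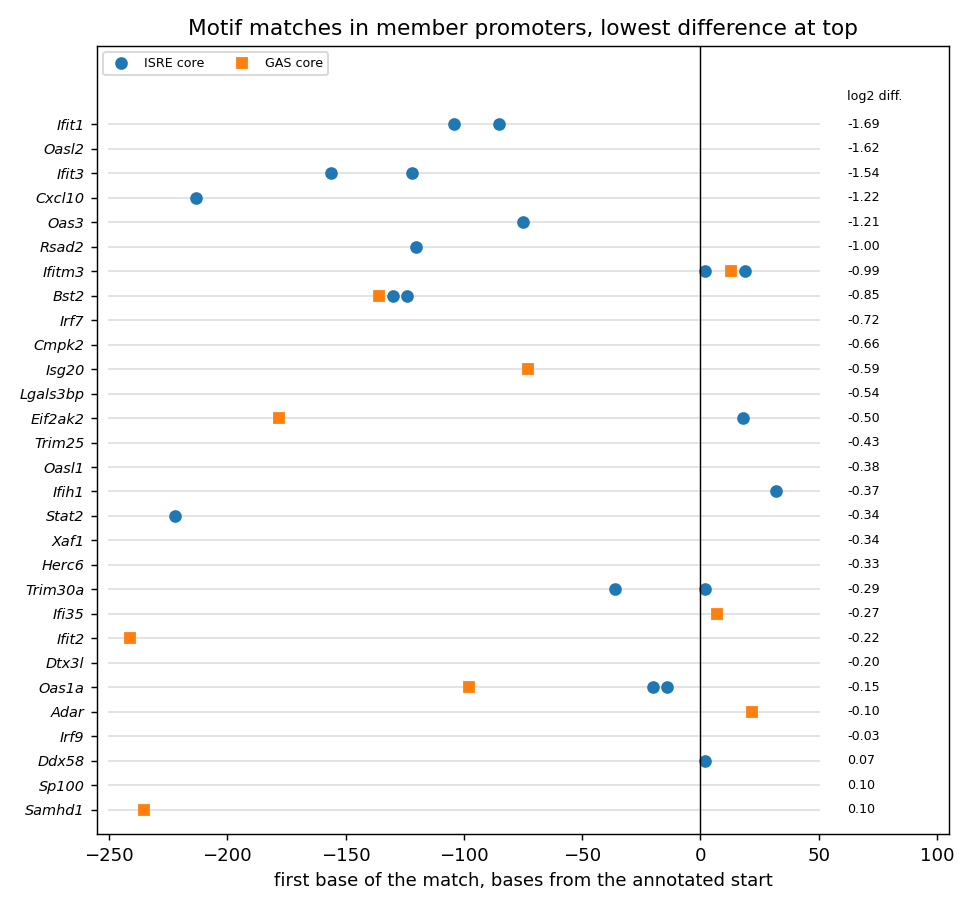
Positions of ISRE core (circles) and gamma-activated site core (squares) matches in the promoter windows of the 29 measured members with a sequence, by the first base of the match from the annotated start (x axis, bases). Genes run down the page by log2 difference, Hopx-/- minus Hopx-sufficient, printed at the right. Upstream ISRE cores occur in 5 of the 6 members at the top, Oasl2 having none, and in Bst2, Stat2, Trim30a and Oas1a lower down.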

How the data were processed

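Total RNA of the sorted cells had been labelled with biotin and hybridised to Affymetrix 3' arrays of 45101 probe sets, per the labels. The authors deposited log2-type values from which the mean of both arrays had been subtracted per probe set, as a test on the table showed (largest row sum 1e-06). Scanner software, summarisation, normalization between arrays and log base are not given in the sources used here. Base 2 was assumed.

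The 34945 probe sets with 1 platform symbol were named, with symbols updated by gene ID (RefSeq, GRCm38.p6; 34741 found). Left out were 932 with several symbols, 9160 with none and 64 controls. The difference was Hopx-/- minus Hopx-sufficient, centred on its median (0.0075), and averaged over probe sets into 18193 gene values. The planned naming rule took every member and the 3 genes farthest from 0 in each of 13 other lists. Family relatives, and other genes where stated, were added after values were seen. Members and lists were chosen with earlier results of these data known. The number of arrays limits precision, and 1 per genotype allows no test. Gene averaging, the step finder and the motif search were tested on simulated data. Alternatives covered centring, the choice of probe sets, naming, log base and thresholds. Python 3.11.15, numpy 2.4.6, pandas 2.3.3 and matplotlib 3.10.9 were used.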

Additional observations from a re-analysis of the deposited data

Results flagged for a closer look

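The probe set that Isg15 shares with Gm9706 was outside the gene values because it carries 2 symbols. Its difference of -1.54 lay below the lowest hybridization spike-in (-0.22), as did 13.03% of all genes. The related probe set of Gm9706 alone stood at -1.23.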

How the results depend on the processing

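The median of the members kept its sign under the 12 alternatives tried, ranging from -0.61 to -0.34. Natural logs, which gave the -0.61, multiply every value by 1.44 and could not turn the sign. Leaving out centring moved every value by 0.0075, and platform symbols returned the same median of -0.43. Without natural logs the lowest median was -0.53, from the probe set farthest from 0. Members below 0 numbered 36 of 39 in each alternative with 39 members, and 37 of 40 with Isg15 added from its shared probe set. They numbered 28 of 31 without probe sets whose names end in _a_at, _s_at or _x_at. With the probe set farthest from 0 for each gene, the medians were -0.53 for members, -0.53 for effectors, -0.55 for sensors and -0.46 for transcription factors. With the nearest probe set they were -0.37 for members, -0.38 for effectors and -0.23 for transcription factors. Without the _a_at, _s_at and _x_at probe sets 31 members were left, with a median of -0.39 and 9 at least 1.5-fold lower. The sensor median was then -0.38. Oasl2, Mx1, Irf7, Isg20 and Cmpk2, each past 1.5-fold in the main values, had only _a_at probe sets and so dropped out. Had natural logs been deposited, the medians would be -0.61 for members, -0.68 for effectors, -0.34 for sensors and -0.50 for transcription factors, and 11 members would be 2-fold lower. Thresholds of -0.32 on the log2 scale and of 3-fold gave 27 and 2 members. The following were chosen after the data were seen: leaving out chromosome 5 gave a median of -0.37, and keeping the 18 members with several probe sets gave -0.34 with 3 at least 1.5-fold lower. Of 343 values of single members under alternatives, 312 moved by less than the standard deviation between probe sets of a gene (0.18). Many of these could not move. For the 21 members with 1 probe set, taking the median, farthest or nearest probe set returned the same value. Signs turned in 4 members, Ddx58, Dhx58, Adar and Samhd1, none of them 1.5-fold apart. The arrays carry no level or background, so signal over background limits the single values to an unknown degree. No paired analysis was possible because the groups hold a single array each, which also bars leaving any out.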
